A study of Rattus norvegicus with 12 samples.

Results

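Heat shock proteins and their DnaJ cochaperones were described in the dorsal striatum of 12 rats, 3 in each of 4 groups. The members were the array probes whose gene name began with Hsp or Dnaj, leaving out Hspg2, which encodes perlecan and no chaperone. The rule took 54 genes, measured by 84 probes, of 35608 genes on the array, with every gene entering through its brightest probe. Of these, 48 passed the filter on dim probes and were tested among 20400 genes. The 6 that did not pass were Dnajc5g, Hspa1b, Hspa1l, Hspb3, Hspb7 and Hspb9. Tmem132a is a member through its older name in the files, Hspa5bp1, and Hspa9a is the name the files give to the gene now called Hspa9. Another 6 genes of these families carry other names in the files and were not members, among them Hsp90b1 and Hspa13.

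All rats were male and carried a unilateral injection of 9 µg 6-hydroxydopamine (6-OHDA), a toxin of dopamine neurons, in the left substantia nigra pars compacta. The 6-OHDA group had no further treatment. The HFS group received continuous high frequency stimulation of the subthalamic nucleus (130 Hz, 80 µs pulses, 60 µA) for 5 days through an electrode on the lesioned side. The DOPA group was given 25 mg/kg L-DOPA with 12.5 mg/kg benserazide in 2 injections daily over 19 days. Rats of the DOPA/HFS group had this L-DOPA course with HFS during its last 5 days. Rats with insufficient denervation or a misplaced electrode had been left out by the authors. Among the groups on the arrays, electrodes are described only for the stimulated rats, so implantation and stimulation cannot be told apart in these comparisons, and no unlesioned group was on the arrays. Strain and age are not given in the sources used here. In bulk tissue, fewer cells of a type and less RNA per cell cannot be told apart.

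Heat shock proteins are molecular chaperones that bind unfolded or partly folded proteins, and many of them are induced by heat and other stresses through heat shock factors. HSP70 proteins work in cycles of ATP binding and hydrolysis that DnaJ proteins, or J proteins, stimulate through their J domain, while HSP90 proteins act on client proteins such as kinases and steroid receptors. Small heat shock proteins hold unfolded proteins without ATP. In neurons, Hspa8 with the J proteins Dnajc5 and Dnajc6 serves synaptic vesicle function and the uncoating of clathrin-coated vesicles, and in the endoplasmic reticulum Hspa5 works with Dnajb9, Dnajb11, Dnajc3 and Dnajc10.

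Of the 54 members, 43 matched a promoter window in the RefSeq table for rat assembly GRCr8, running from 250 bases before to 50 bases after the annotated start. The core of a heat shock element (GAANNTTC or TTCNNGAA, each of which reads the same on both strands) was in 15 of the 43 windows (34.9%), against 15.4% of the 27457 windows of all genes. The windows of Hspd1 and Hspe1 share 211 bases and both held 3 matches, so they are not independent. The endoplasmic reticulum stress element (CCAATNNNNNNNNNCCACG, or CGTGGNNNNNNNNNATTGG on the other strand) was in 2 windows (4.65%), those of Hspa5 and Dnajc3, against 0.0765% of all. A CCAAT box (CCAAT or ATTGG), which is contained in that element, was in 18 windows (41.9%), against 37.7% of all. Hspa8 held 4 heat shock element cores, Hsph1 and Dnaja1 held 3 each, and Hspa1a held none in this window. A match is a description of letters and no binding site was measured. The windows printed here are those of Hspb1 and Hspb8, small heat shock proteins described further on, and of Hspa5 and Dnajc3, which held the stress element. Capitals mark the heat shock element core in the first pair and the endoplasmic reticulum stress element in the second.
Hspb1, chr12:26432252-26432551, strand -: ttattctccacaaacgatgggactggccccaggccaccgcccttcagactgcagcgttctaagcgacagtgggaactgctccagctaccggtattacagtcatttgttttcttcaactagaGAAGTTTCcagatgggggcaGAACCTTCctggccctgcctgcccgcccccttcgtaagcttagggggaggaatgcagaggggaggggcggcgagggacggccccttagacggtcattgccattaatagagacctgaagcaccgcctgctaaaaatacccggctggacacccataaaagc
Hspb8, chr12:45837058-45837357, strand +: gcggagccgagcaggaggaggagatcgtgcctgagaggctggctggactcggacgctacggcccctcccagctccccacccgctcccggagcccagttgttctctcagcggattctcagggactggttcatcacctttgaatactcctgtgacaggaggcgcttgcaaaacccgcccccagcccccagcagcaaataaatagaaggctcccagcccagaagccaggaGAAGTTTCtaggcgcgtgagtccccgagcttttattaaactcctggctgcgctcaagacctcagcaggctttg
Hspa5, chr3:38452766-38453065, strand +: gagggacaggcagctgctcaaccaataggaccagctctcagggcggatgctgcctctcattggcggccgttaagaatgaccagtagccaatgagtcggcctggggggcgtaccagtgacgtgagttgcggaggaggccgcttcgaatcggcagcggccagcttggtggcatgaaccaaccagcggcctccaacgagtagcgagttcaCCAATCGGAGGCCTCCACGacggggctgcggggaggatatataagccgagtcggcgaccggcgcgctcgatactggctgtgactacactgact
Dnajc3, chr15:102432417-102432716, strand +: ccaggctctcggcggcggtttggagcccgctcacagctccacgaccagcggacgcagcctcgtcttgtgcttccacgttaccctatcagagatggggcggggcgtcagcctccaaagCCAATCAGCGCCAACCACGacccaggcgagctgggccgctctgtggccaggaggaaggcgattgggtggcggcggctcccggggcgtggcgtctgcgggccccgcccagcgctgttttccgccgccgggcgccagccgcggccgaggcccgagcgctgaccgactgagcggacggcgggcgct

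Values below are log2 intensities after quantile normalization between arrays, and a change is a difference of such values. Of the 48 tested members, 46 were well above background on every array that gave a value. Dnajb13 and Hspb2 were above it only on some arrays, and no member was saturated. On DOPA/HFS replicate 3, where 4175 spots were marked as outliers against at most 25 on any other array, 5 members had no value (Dnajc3, Dnajc6, Dnajc8, Dnajc18 and Hspb2). Markers of striatal projection neurons were present in all groups, with summed intensities of 226411 to 323859. Of 10 choroid plexus markers, 7 were tested and all 7 were higher in HFS vs 6-OHDA at an unadjusted limma p under 0.05. The sum of 6 of them, those with a value on every array, was 262 to 393 on the 6-OHDA arrays, 4301 to 89057 on the HFS arrays, 229 to 16494 on the DOPA arrays and 275 to 919 on the DOPA/HFS arrays. It was highest on HFS replicate 1. A sum of 5 leptomeningeal markers was 5227 to 6639 on the 6-OHDA arrays and 6984 to 12610 on the HFS arrays. The choroid plexus level was added as a covariate in an alternative fit, given for members where it moved a result. This level separated all HFS arrays from all 6-OHDA arrays, so covariate and group can hardly be told apart in HFS vs 6-OHDA. A change in that comparison with the covariate is therefore poorly determined. The part of the leptomeningeal markers was not tested.

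**Figure D1:**
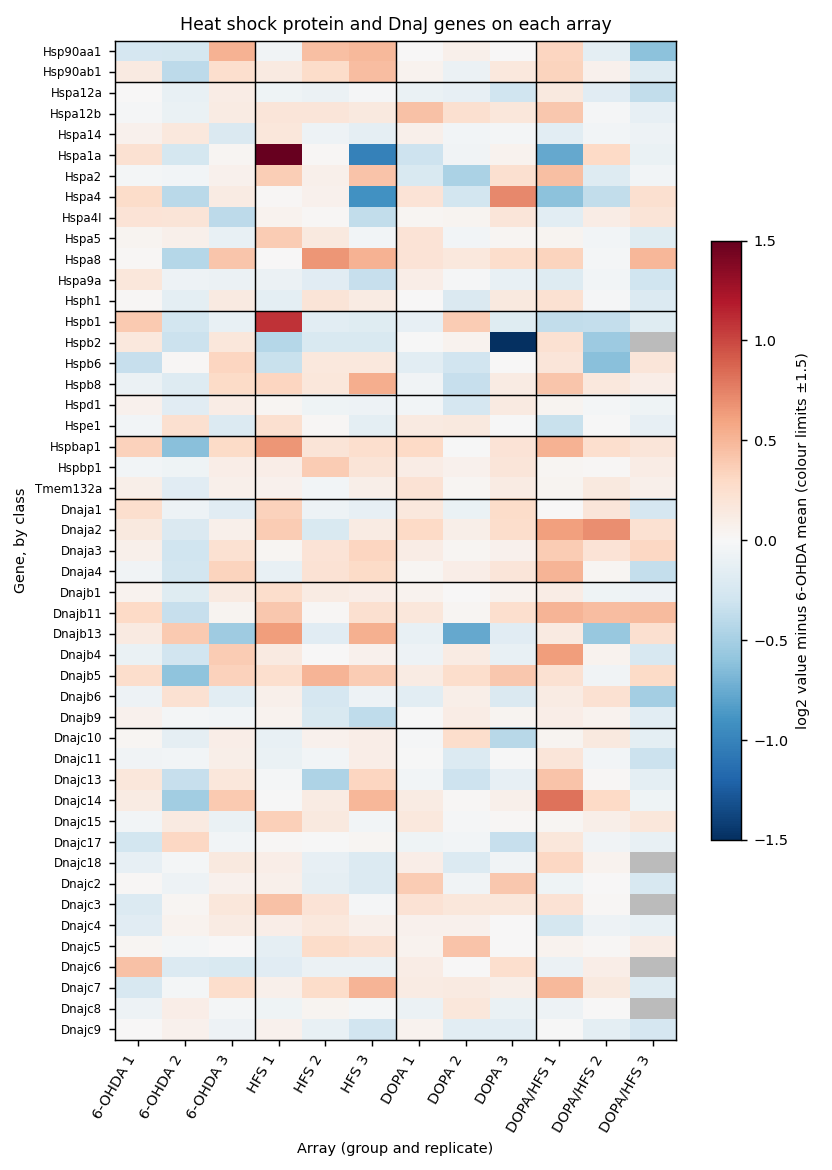
Each row is a tested gene, grouped by class, and each column an array, with colour for the log2 value minus the mean of the 3 6-OHDA arrays. Grey cells are the 5 missing values on DOPA/HFS replicate 3. Hspa1a and Hspb1 on HFS replicate 1 stand out as the darkest red cells.

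No member was called in the HFS, DOPA or DOPA/HFS group vs 6-OHDA. A call required, in limma, an adjusted p (Benjamini-Hochberg) below 0.1 and also a fold above 1.2 or below 0.8. Over all genes, the called share was 0% for HFS, 0.0049% (1 gene) for DOPA and 0% for DOPA/HFS, so a count of 0 members is near the background. No member was called for the main effect of HFS (0% of all genes), the main effect of L-DOPA (0.0049%), their interaction (0%) or the moderated F test over the 4 groups (0.0049%). The lowest adjusted p of any member in these limma fits was 0.911, in the main effect of HFS. At an unadjusted p under 0.05, members numbered 0 for HFS (2.34% of all genes), 0 for DOPA (2.58%) and 2 for DOPA/HFS (2.75%). They numbered 2 in the main effect of HFS (4.36%), 1 in that of L-DOPA (2.74%) and 0 in the interaction (1.98%) and the F test (2.81%). Of the 6 family genes under other names, 5 were tested and 0 were called. At an unadjusted limma p under 0.05, 1 of these 5 was lower in HFS and 1 higher in DOPA. In the main effect of HFS 1 was lower, and in the interaction 1 was below 0.

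The sizes that these arrays bound were as follows. In HFS vs 6-OHDA, the 95% interval of the change included 0 for all 48 members and lay within 1 log2 unit of 0 for 44 of them. In DOPA vs 6-OHDA the interval lay within that limit for 45 members, and in DOPA/HFS vs 6-OHDA for 44. Changes of members ran from -0.30 to 0.40 in HFS, and 31 of 48 were above 0 (51.5% of all genes). For DOPA they ran from -0.56 to 0.28 with 29 above 0 (47.7% of all genes), and for DOPA/HFS from -0.30 to 0.52 with 25 above 0 (47.6% of all genes). In the interaction the largest changes were 0.70 for Hspb2, -0.58 for Hspb1 and -0.49 for Dnajb5. That of Hspb2 was 0.12 without DOPA replicate 3 and that of Hspb1 -0.16 without HFS replicate 1. That of Dnajb5 was -0.19 without 6-OHDA replicate 2. The member median was 0.079 for HFS, 0.044 for DOPA and 0.0047 for DOPA/HFS, beside 0.0086, -0.010 and -0.012 over all genes tested. The median within-group SD was 0.20 for members against 0.27 over all genes, and 14 of 48 lay above that all-gene median. Members and all genes were not matched for intensity, and the part of intensity in this difference was not tested.

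**Figure D2:**
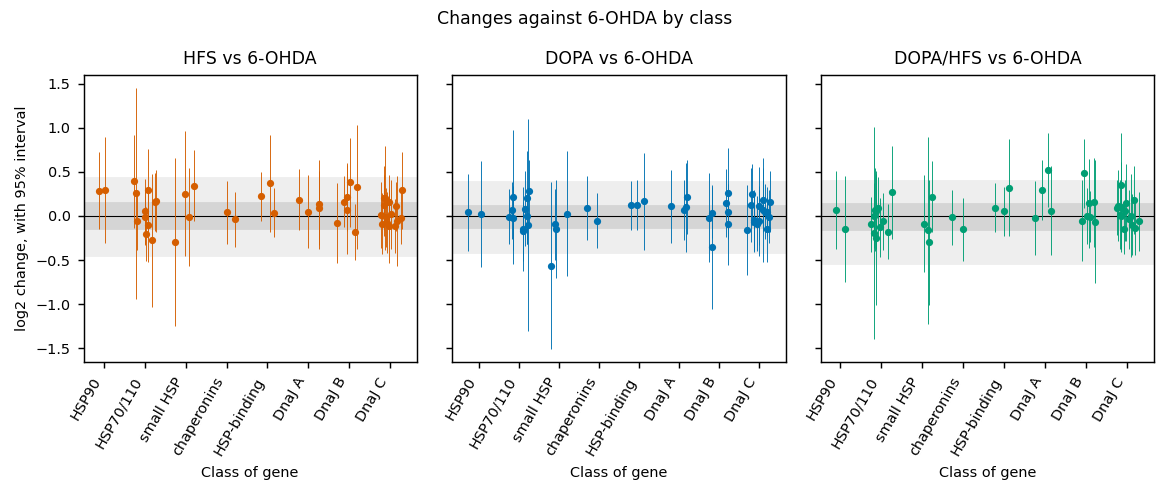
Points are the log2 changes of the 48 tested genes against 6-OHDA, by class along the horizontal axis, with 95% intervals from limma. Dark and light grey bands hold the middle 50% and 90% of all tested genes, and no interval in the HFS or DOPA panel leaves out 0.

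Among the J proteins, which deliver substrates to HSP70, Dnaja2 and Dnajb11 were higher on all DOPA/HFS arrays than on any 6-OHDA array. Of the 43 members with a value on every array of both groups, these were the 2 without overlap (4.19% of all genes). Dnaja2, a cytosolic J protein, measured 13.25, 12.89 and 13.19 in 6-OHDA and 13.73, 13.81 and 13.34 in DOPA/HFS. It measured 13.49, 12.88 and 13.23 in HFS and 13.40, 13.20 and 13.38 in DOPA, both of which overlapped 6-OHDA. Its change in DOPA/HFS was 0.52 (SE 0.19, unadjusted p 0.0204, adjusted p 0.9997 in limma), and the exact two-sided permutation test gave p = 0.1, the smallest it allows with 3 against 3 arrays. Each slide carried 1 array of every group, and within slides the Dnaja2 difference was 0.48, 0.92 and 0.15. Over 6 rats with L-DOPA against 6 without, Dnaja2 differed by 0.32 (SE 0.14, unadjusted p 0.0358, adjusted p 0.9998 in limma, unadjusted exact permutation p = 0.0433).

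Dnajb11, a J protein of the endoplasmic reticulum, measured 9.40, 8.75 and 9.14 in 6-OHDA and 9.60, 9.56 and 9.56 in DOPA/HFS. In HFS it measured 9.49, 9.11 and 9.33, and in DOPA 9.27, 9.12 and 9.35. The DOPA/HFS arrays lay close together and above those of the other groups. The change in DOPA/HFS was 0.48 (SE 0.18, unadjusted p 0.0190, adjusted p 0.9997 in limma, exact permutation p = 0.1), and within slides it was 0.21, 0.81 and 0.43. The DOPA/HFS change was 0.31 (unadjusted limma p 0.0819) without 6-OHDA replicate 2, the lowest array, and 0.25 (unadjusted limma p 0.213) with the deposited table. Over 6 stimulated against 6 unstimulated rats, Dnajb11 differed by 0.27 (SE 0.12, unadjusted p 0.0492, adjusted p 0.911 in limma, unadjusted exact permutation p = 0.0519). With the choroid plexus covariate that difference was 0.20 (unadjusted limma p 0.217). With outlier spots kept, the DOPA/HFS change had an unadjusted limma p of 0.163 for Dnajb11 and 0.0874 for Dnaja2.

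Hspb8, a small heat shock protein that works with the cochaperone Bag3, was the member with the lowest p in the main effect of HFS. It measured 7.96, 7.86 and 8.33 in 6-OHDA and 8.37, 8.22 and 8.59 in HFS. In DOPA it measured 8.00, 7.70 and 8.17, and in DOPA/HFS 8.46, 8.20 and 8.14. Stimulated rats tended to the upper part of the range, with overlap. The HFS main effect was 0.33 (SE 0.13, unadjusted p 0.0283, adjusted p 0.911 in limma), and within slides it was 0.43, 0.43 and 0.11. The same effect was 0.21 (unadjusted p 0.196) with the choroid plexus markers as a covariate in limma and 0.16 (unadjusted limma p 0.284) with the deposited table.

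**Figure D3:**
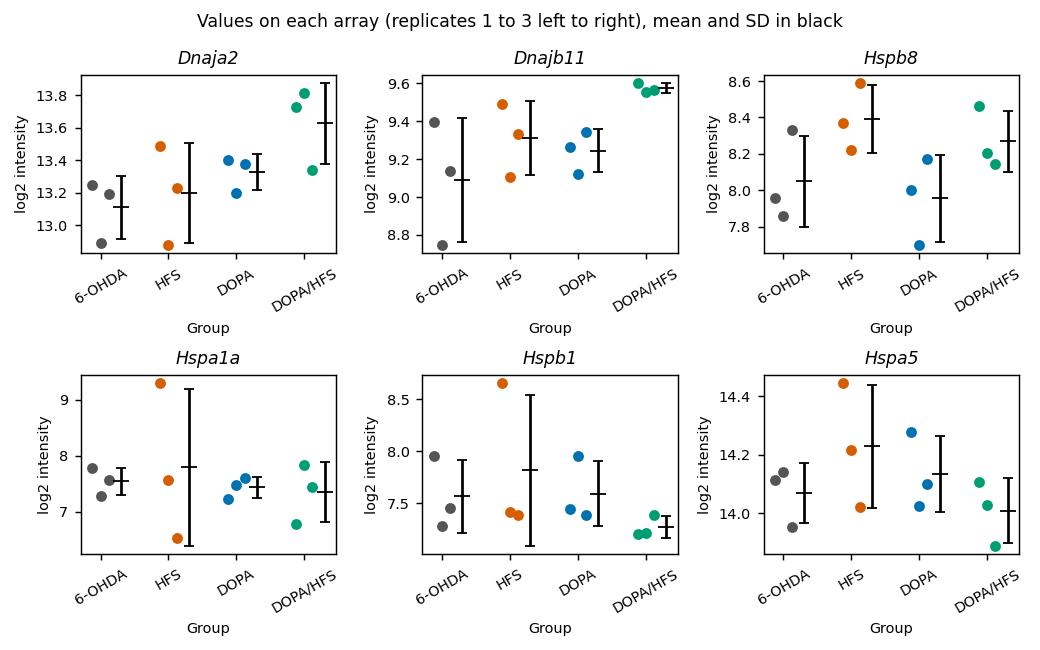
Log2 intensities of 6 genes on each of the 12 arrays, with replicates 1 to 3 from left to right in each group and the mean and SD in black. Dnajb11 lies between 9.56 and 9.60 on the DOPA/HFS arrays, and Hspa1a and Hspb1 have a single high HFS array.

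Among the heat-inducible members, the HFS changes of Hspa1a and Hspb1 depended on which rat was included. That of Hspa1a was -0.50 without HFS replicate 1 and 0.89 without HFS replicate 3. Hspa1a, the stress-inducible cytosolic HSP70, measured 7.77, 7.28 and 7.57 in 6-OHDA and 9.30, 7.56 and 6.53 in HFS. It measured 7.23, 7.48 and 7.60 in DOPA and 6.78, 7.84 and 7.43 in DOPA/HFS. On this probe, the brightest, the highest and the lowest of the 12 arrays were both in the HFS group. Its within-group SD of 0.77 was at percentile 95.3 of all genes. A second probe of Hspa1a was also highest on HFS replicate 1, at 8.34 against 6.08 to 7.58 on the other arrays with a value. Its lowest array was 6-OHDA replicate 2, at 6.08, and HFS replicate 3 measured 6.90. The HFS change of this probe was 0.59 in the fit over all probes (unadjusted limma p 0.178). The values given with an array left out are those of the brightest probe. Hspa1b, a near-identical copy, was above background on no array, and transcripts of the copies may reach the same probes.

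Hspb1, the small heat shock protein HSP27, measured 8.65, 7.41 and 7.39 in HFS and 7.96, 7.29 and 7.46 in 6-OHDA. In DOPA it measured 7.44, 7.95 and 7.39, and in DOPA/HFS 7.20, 7.21 and 7.39. HFS replicate 1 was again the highest array. It was the highest array for 5 of the 9 tested heat-inducible members and for 11 of all 48. DOPA/HFS replicate 1 was the highest for 12 of the 48 and for 1 of the 9. The lowest array was 6-OHDA replicate 2 for 11 of the 48 and DOPA/HFS replicate 3 for 9. On these 2 arrays the median deviation of members from their means was -0.14 and -0.11, beside -0.011 and -0.064 over all genes. The immediate early gene sum was also highest on HFS replicate 1, at 80883 against 20349 to 54586 on the other arrays. The choroid plexus sum on HFS replicate 1 was 89057. The part of the immediate early genes in these values was not tested, and with the choroid plexus covariate the HFS change of Hspa1a was -0.26. The HFS change was 0.26 for Hspa1a and 0.25 for Hspb1, and without HFS replicate 1 it was -0.50 and -0.17, so no direction is given for either.

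Hspa1a and Hspb1 correlated over the 12 arrays with r = 0.78 (permutation p = 0.0125, adjusted p = 0.200) and rho = 0.47 (permutation p = 0.127, adjusted p = 0.537). Without the 2 arrays farthest from the median of Hspa1a, r was 0.37, so the relation rests on those arrays. This was 1 of 16 computed pairs of 18 listed, the others being without values for Sdf2l1 and Hspa1b. None of the 16 passed an adjusted permutation p of 0.05. Among them, Hspa5 with its endoplasmic reticulum partners ranged from r = -0.21 for Dnajc10 to r = 0.58 for Dnajc3, the latter over 11 arrays and 0.02 without 2 of them.

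**Figure D4:**
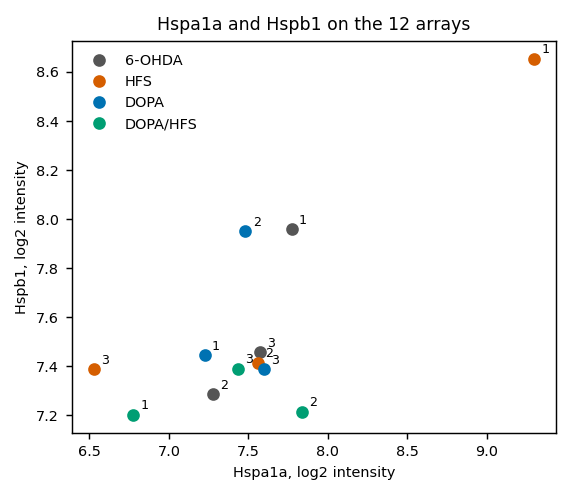
Log2 intensity of Hspb1 against that of Hspa1a on the 12 arrays, with colour for the group and a digit for the replicate. HFS replicate 1 lies alone at 9.30 and 8.65.

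Hspa8, the constitutive cytosolic HSP70, measured 14.92, 14.47 and 15.32 in 6-OHDA and 14.91, 15.57 and 15.42 in HFS. On the brightest probes, its HFS change of 0.40 was the largest of any member in that comparison (SE 0.24, unadjusted p 0.127 in limma). With an array left out this change ranged from 0.18 without 6-OHDA replicate 2 to 0.60 without 6-OHDA replicate 3. The other Hspa8 probes that passed the filter changed by 0.43, 0.20 and 0.15, in the fit over all probes. Hsp90aa1 and Hsp90ab1, the inducible and constitutive cytosolic HSP90, both had an HFS change of 0.29, with unadjusted limma p of 0.302 and 0.177. Hsp90ab1 measured 16.02, 15.48 and 16.14 in 6-OHDA and 16.01, 16.16 and 16.34 in HFS, and the groups overlapped. Hspbap1 measured 9.18, 8.21 and 9.12 in 6-OHDA and 9.50, 9.04 and 9.09 in HFS, with overlap. Its HFS change was 0.37, and it was 0.055 without 6-OHDA replicate 2.

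Without overlap in HFS vs 6-OHDA were 3 of 48 members (5.13% of all genes). Hspa12b, an HSP70 relative known from endothelial cells, measured 6.83, 6.76 and 6.97 in 6-OHDA and 7.03, 7.04 and 7.01 in HFS. Hspa2 was likewise higher, at 8.55, 8.25 and 8.60 against 8.15, 8.14 and 8.24. With the choroid plexus covariate, which can hardly be told apart from the group here, its change of 0.29 became -0.18. Hspa9a, the mitochondrial HSP70, was lower, at 14.98, 14.89 and 14.72 against 15.24, 14.99 and 14.98. The unadjusted limma p of these 3 was 0.302, 0.203 and 0.171. Over 6 stimulated against 6 unstimulated rats, Hspa9a differed by -0.19 (unadjusted p 0.0858, adjusted p 0.911 in limma). In DOPA vs 6-OHDA the single member without overlap (6.27% of all genes) was Hspa12b, at 7.30, 7.09 and 7.02. The sum of 4 endothelial markers was 7033 to 7249 in 6-OHDA, 5766 to 8270 in HFS and 8016 to 9588 in DOPA, and its part in the Hspa12b values was not tested. In both main effects, 6 against 6 rats, no member was without overlap (0.163% and 0.136% of all genes).

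Hspa5, the HSP70 of the endoplasmic reticulum, measured 14.11, 14.14 and 13.95 in 6-OHDA and 14.45, 14.22 and 14.02 in HFS. It measured 14.28, 14.02 and 14.10 in DOPA and 14.11, 14.03 and 13.89 in DOPA/HFS, and all groups overlapped. Hspd1 and Hspe1, the mitochondrial chaperonin and its cochaperonin, changed by -0.04 and 0.04 in HFS. The other Hspd1 probes that passed the filter changed by 0.21, 0.13 and 0.11 in HFS, in the fit over all probes. For the vesicle genes, Dnajc5 (cysteine string protein) measured 7.98, 7.93 and 7.95 in 6-OHDA and 7.82, 8.22 and 8.18 in HFS. Dnajc6 (auxilin) measured 13.71, 13.07 and 13.04 in 6-OHDA and 13.10, 13.18 and 13.18 in HFS. Neither separated the groups. Of 18 members with more than 1 probe that passed the filter, the probes differed in sign for 6 in the HFS comparison, for 9 in that of DOPA and for 11 in that of DOPA/HFS. Among the probes that were not the brightest of their gene, an unadjusted limma p under 0.05 was reached by 1 probe each of Dnajb9 and Hspa4, given with those genes, and by 1 of Hspa8 in the interaction (-0.59, unadjusted limma p 0.0146).

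The class A J proteins, whose founding members Dnaja1 and Dnaja2 serve cytosolic HSP70, had 4 of 4 changes above 0 for HFS, likewise 4 of 4 for DOPA, and 3 of 4 for DOPA/HFS. Dnaja1 measured 14.57, 14.24 and 14.15 in 6-OHDA and 14.66, 14.24 and 14.20 in HFS. Dnaja3, a mitochondrial J protein, measured 9.15, 8.78 and 9.30 in 6-OHDA and 9.45, 9.29 and 9.39 in DOPA/HFS. Dnaja1 overlapped between the groups, while for Dnaja3 the highest 6-OHDA array reached 9.30 and the lowest DOPA/HFS array 9.29, so they overlapped. The HFS main effect of Dnaja3 was 0.21 (unadjusted p 0.0828, adjusted p 0.911 in limma, unadjusted exact permutation p = 0.0325).

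Of 7 class B J proteins, 5 were above 0 in HFS and 3 in DOPA/HFS. Dnajb1, the heat-inducible HSP40, measured 11.40, 11.16 and 11.47 in 6-OHDA and 11.61, 11.47 and 11.44 in HFS. Dnajb5 measured 10.69, 9.83 and 10.77 in 6-OHDA and 10.69, 10.94 and 10.81 in HFS. Its HFS change was 0.38, and it was 0.081 without 6-OHDA replicate 2, the low array of its group. Dnajb6, a suppressor of protein aggregation, measured 12.65, 12.96 and 12.56 in 6-OHDA and 12.80, 12.47 and 12.65 in HFS. Dnajb9, a J protein of the endoplasmic reticulum, measured 10.62, 10.53 and 10.52 in 6-OHDA and 10.61, 10.33 and 10.18 in HFS. None of these 4 separated the groups on the brightest probe. A second Dnajb9 probe changed by -0.50 in HFS (unadjusted limma p 0.0152) against -0.18 on the brightest, and by -0.27 in the main effect of HFS (unadjusted limma p 0.0497), in the fit over all probes.

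Dnajb13, a J protein of motile cilia, was among the dimmest members and was well above background on 2 of 3 arrays in 6-OHDA and 1 of 3 in DOPA. It measured 5.65, 5.90 and 4.98 in 6-OHDA and 6.14, 5.34 and 6.04 in HFS. In DOPA it measured 5.39, 4.74 and 5.34, and in DOPA/HFS 5.65, 4.94 and 5.75. Its L-DOPA main effect of -0.37 was the largest change of any member in that comparison and had an unadjusted limma p of 0.126, and it was -0.25 without DOPA/HFS replicate 2. The HFS main effect of Dnajb13 was 0.31 and its change in DOPA vs 6-OHDA was -0.35. Under alternatives these came as near to 0 as 0.054 and -0.073. The sum of 3 ependymal and cilia markers was 1653 to 6962 in 6-OHDA, 3782 to 6514 in HFS, 1989 to 2906 in DOPA and 2893 to 4606 in DOPA/HFS, and its part in the Dnajb13 values was not tested.

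The 15 tested class C J proteins were divided, with 8 changes above 0 in HFS and as many in DOPA, and 9 in DOPA/HFS. Dnajc3, the inhibitor of eIF2 alpha kinases whose window is printed here, measured 8.05, 8.29 and 8.43 in 6-OHDA and 8.69, 8.46 and 8.23 in HFS. Dnajc13, an endosomal J protein, measured 8.64, 8.13 and 8.64 in 6-OHDA and 8.44, 8.01 and 8.79 in HFS. Both overlapped. Dnajc14 measured 9.31, 8.66 and 9.58 in 6-OHDA and 10.00, 9.48 and 9.11 in DOPA/HFS, a change of 0.35 that was 0.087 without 6-OHDA replicate 2.

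Of the small heat shock proteins, 4 of 7 were tested, and all 4 had an L-DOPA main effect below 0 with no unadjusted p under 0.05 in limma. Hspb6, expressed in muscle and astrocytes, measured 7.75, 8.12 and 8.42 in 6-OHDA and 7.77, 8.25 and 8.25 in HFS. Hspb2 measured 5.51, 5.03 and 5.53 in 6-OHDA and 5.35, 5.41 and 3.63 in DOPA. The single DOPA array at 3.63 set its change of -0.56, which was 0.019 without it.

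Hsph1, the HSP110 nucleotide exchange factor of HSP70, measured 11.54, 11.37 and 11.65 in 6-OHDA and 11.37, 11.71 and 11.64 in HFS. Hspa4, another HSP110 protein, measured 12.74, 12.05 and 12.59 in 6-OHDA and 12.48, 12.53 and 11.56 in HFS. In DOPA it measured 12.66, 12.18 and 13.19, and in DOPA/HFS 11.85, 12.09 and 12.70. Its HFS main effect of -0.37 was the largest of any member, with an unadjusted limma p of 0.157 and a within-group SD of 0.47. It was -0.21 without HFS replicate 3 while a second probe gave -0.39 (unadjusted limma p 0.0367) and the mean of both probes -0.44 (unadjusted limma p 0.0112, adjusted p 0.922), which leaves out DOPA/HFS replicate 3, where only the brighter probe has a value. Hspa12a, a neuronal HSP70 relative, lay between 12.20 and 12.72 on all arrays.

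Other genes of the pathway were counted from fixed lists. Of 21 tested heat shock factors and HSP70 or HSP90 cochaperones, 0 reached an unadjusted limma p under 0.05 in HFS or DOPA/HFS (2.34% and 2.75% of all genes), and 1 did in DOPA (2.58%), Bag3, a partner of Hspb8, with a change of 0.51 (unadjusted p 0.0228). All 8 subunits of the cytosolic chaperonin TRiC had a change above 0 in HFS (51.5% of all genes), with a median of 0.20, and 0 of 8 reached that p. In DOPA 4 of 8 were above 0 and in DOPA/HFS 6 of 8, and none reached it there either. Of 17 tested endoplasmic reticulum stress genes, 3 reached that p in HFS (2.34% of all genes), and 0 did in DOPA (2.58%) or in DOPA/HFS (2.75%). Pdia3, a disulfide isomerase, measured 9.78, 9.87 and 10.33 in 6-OHDA and 10.58, 10.56 and 10.68 in HFS (change 0.62, unadjusted limma p 0.0137). The others were Calr (0.49, p 0.0458 in limma) and Trib3 (-0.58, p 0.0312 in limma). None of these passed the adjustment over all genes. The alternatives, among them the choroid plexus covariate and each array left out, were not examined for the genes of these lists.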

How the data were processed

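The authors extracted RNA from punches of the dorsal striatum and hybridised the RNA of each rat to 1 single-colour Agilent array. The intensity values deposited by the authors were quantified per spot with Agilent Feature Extraction 9.1 (9.1.3.1 in the file headers), background-corrected and not normalized between arrays. The deposited log2 table was quantile normalized by the authors and served as an alternative. Arrays held 45018 spots, 1639 of them controls.

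Outlier spots were left out, log2 intensities were quantile normalized, spots of a probe averaged, probes kept if well above background on a share of at least 0.4 of arrays, and the brightest probe taken per gene. All 12 arrays were fitted by group with limma 3.58.1 in R 4.3.3, with Benjamini-Hochberg adjustment over 20400 genes. Single genes were tested by exact permutation and pairs with 100000 permutations. The fit was tested on simulated data. Members and lists were chosen with earlier results of these data known. Named members were those with an unadjusted p under 0.05, a fixed list, the 3 largest changes per comparison and those without overlap. The last, and Dnaja3 and Hspb6, were chosen after their values were seen. The replicate number marked the slide, with 1 array of each group per slide, and residuals of arrays on a slide correlated from -0.28 to 0.47 (median 0.11). Position on the slide followed the group, so they cannot be told apart. The number of arrays limits the precision.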

Additional observations from a re-analysis of the deposited data

How the results depend on the processing

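The count of 0 called members held in all 163 alternative results for the 6 comparisons and the F test, which covered scaling, background correction, the deposited table, dim filters, probe choice, the replicate block, outlier spots, thresholds, each array left out and, added after the data were seen, a choroid plexus covariate. The count of members at an unadjusted p under 0.05 moved by over 1.5 times in 48 alternatives and by less in 102, lying between 0 and 3 with an array left out. The replicate block changed no call, and the DOPA/HFS change had an unadjusted limma p of 0.0173 for Dnaja2 and 0.00947 for Dnajb11. The member median in DOPA/HFS vs 6-OHDA was -0.084 with the deposited log2 table and -0.10 with outlier spots kept. With each array left out, the member median in DOPA vs 6-OHDA ranged from -0.039 to 0.069, the lowest without 6-OHDA replicate 2. In HFS vs 6-OHDA it was 0.035 without 6-OHDA replicate 2 and 0.018 with 75th percentile scaling. The changes of Dnaja2 and Dnajb11 in DOPA/HFS were above 0 in all 22 alternatives each, with an unadjusted p under 0.05 in 17 and 18, and that of Hspb8 in the main effect of HFS was above 0 in 21, with such a p in 13. Of 21 alternatives each, such a p held in 7 for Dnajb11 in the main effect of HFS and in 12 for Dnaja2 in that of L-DOPA. The changes that turned sign were those of Hspa1a (HFS, -0.50 without HFS replicate 1 to 0.89 without HFS replicate 3, and -0.26 with the covariate; L-DOPA main effect, -0.59 without HFS replicate 3 to 0.10 without HFS replicate 1), Hspb1 (HFS, -0.17 without HFS replicate 1 to 0.47 without HFS replicate 3), Hspa2 (HFS, -0.18 with the covariate) and Hspb2 (DOPA, -0.87 without DOPA replicate 2 to 0.019 without DOPA replicate 3; interaction, -0.59 with the covariate). Of 60 further changes of fixed-list members, 39 took another sign under at least 1 alternative, so no direction is claimed for these. With group means removed, r was 0.79 for Hspa1a with Hspb1 (permutation p adjusted to 0.0430, for Spearman's rho 0.125), but 0.40 without HFS replicates 1 and 3. The permutations with group means removed shuffled arrays across groups and did not allow for the means removed. They did not allow for unequal spread either (SD of Hspa1a 1.40 in HFS and 0.19 in DOPA), so these p can be too small. With group means removed, r was 0.73 for Hspa5 with Dnajb9 (adjusted permutation p 0.0562) and -0.65 with Hsp90b1 (adjusted permutation p 0.0991). These were 0.36 and -0.38 without HFS replicates 1 and 3, and 0.22 and -0.14 over 12 arrays with group means kept. Removing group means turned r from -0.05 to 0.16 for Hspa5 with Dnajb11 and from 0.16 to -0.26 with Calr. With group means kept and 75th percentile scaling, r with Calr was -0.16. Dnajb13 and Hspb2 were not above background on every array, which limits their values.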
